A study of Mus musculus with 7 samples.

Results

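Kdm2b and the subunits of the Polycomb complex that it recruits were followed in pancreatic islets of mice with and without induced inactivation of Wnt4 in β-cells. The 10 genes are Kdm2b, its paralog Kdm2a, Pcgf1, Bcor, Bcorl1, Usp7, Skp1a, Rnf2, Ring1 and Rybp. Every array probe whose transcript accession maps to one of these genes was kept, which gave 19 of the 56605 non-control probes, and 10 of the 22911 genes named on the array. Of the 19 probes, 16 were among the 26151 tested, each well above its local background on at least 3 of the 7 arrays. Kdm2b was selected on the genotype difference of 1 of its 3 probes in these arrays, so its differences are given as a description with no test. The other 9 genes were chosen by their place beside Kdm2b in the complex or family.

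KDM2B carries a CXXC zinc finger that binds DNA at unmethylated CpG dinucleotides and a JmjC domain that removes methyl groups from lysine 36 of histone H3. Through this finger it brings a variant Polycomb repressive complex, PRC1.1, to CpG islands, where the RING-type E3 ligases RING1 and RNF2 attach ubiquitin to histone H2A together with PCGF1. BCOR or BCORL1, RYBP or YAF2, SKP1 and the deubiquitinase USP7 complete the complex, and KDM2A is a CXXC demethylase that does not join PRC1.1. In islets, Polycomb repression is known for its part in β-cell identity and in the silencing of the Cdkn2a locus.

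The study asked what loss of Wnt4 does to the transcripts of islets. RNA was taken at 7 weeks of age from 4 Wnt4βKO mice (Pdx1CreER Tg+; Wnt4fl/fl) and 3 control mice (Pdx1CreER Tg-; Wnt4fl/fl). Per the paper, the Wnt4βKO mice were male and the controls were littermates. It also reports that 1 further control sample was excluded for failing quality tests. Both groups carried the floxed Wnt4 alleles and both were given tamoxifen by gavage at 4 to 5 weeks, so the groups differ in the Cre transgene as well as in Wnt4 deletion, and these cannot be told apart with these arrays. The Cre is driven by the Pdx1 promoter, the islets were whole and hand-picked and therefore hold endocrine, vascular and remaining exocrine cells, and each array is 1 mouse.

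Each array held 62976 spots, of which 45.5% to 49.0% were well above background and 0 were saturated, and all 7 arrays came from 1 slide and 1 scan. Wnt4 itself had log2 signals of 11.55, 11.17 and 11.80 in control replicates 2, 3 and 4 and of 11.32, 10.82, 11.01 and 10.90 in Wnt4βKO replicates 1 to 4. Its difference of -0.49 ± 0.17 (SE) had an unadjusted limma p of 0.0237 and an adjusted p of 0.651, and the groups overlapped. The paper reports that qPCR found less Wnt4 in Wnt4βKO islets. It calls that reduction an underestimate, since islets hold cells that were not targeted, and it also reports WNT4 immunostaining. Where the Wnt4 probe lies relative to the deleted part was not determined. All log2 values given here are background-corrected, quantile-normalized signals, and differences are Wnt4βKO minus control. The adjusted p-values run over all 26151 tested probes, and precision is limited by there being 7 arrays.

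Kdm2b lies on the minus strand of mouse chr5:122870664-122989270 (RefSeq, GRCm38.p6), with 5 curated and 10 predicted transcripts. Its 4 start windows span 88749 bases, so that long and short transcripts begin far apart. The 250 bases before a start of each kind are shown, read 5′ to 3′ on the minus strand with each CG in capitals, because CG is the dinucleotide that KDM2B binds. The first lies at chr5:122989100-122989349 and the second at chr5:122900368-122900617.
Kdm2b, distal start: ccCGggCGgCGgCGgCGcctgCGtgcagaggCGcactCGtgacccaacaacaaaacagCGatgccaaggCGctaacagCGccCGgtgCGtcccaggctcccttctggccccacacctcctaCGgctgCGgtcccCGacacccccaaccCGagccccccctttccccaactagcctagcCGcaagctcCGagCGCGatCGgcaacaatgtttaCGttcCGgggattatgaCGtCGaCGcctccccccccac
Kdm2b, internal start: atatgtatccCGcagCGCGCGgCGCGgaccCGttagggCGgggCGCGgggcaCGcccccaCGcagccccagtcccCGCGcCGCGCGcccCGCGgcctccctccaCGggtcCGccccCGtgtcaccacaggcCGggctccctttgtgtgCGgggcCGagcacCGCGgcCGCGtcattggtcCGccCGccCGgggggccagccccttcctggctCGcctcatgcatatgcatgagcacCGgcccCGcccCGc
The distal window shown holds 27 CG dinucleotides and the internal one 36, against a median of 6 over the 32851 windows of the same length in the table. As many CG or more stood in 8.56% of all windows for the first and in 2.58% for the second. The windows not shown hold 12 CG at chr5:122988508-122988757, a further distal start that 33.5% of windows match or exceed, and 38 CG at chr5:122900351-122900600, which largely overlaps the internal window. All 3 Kdm2b probes carry the same transcript accession in the array files. Probe sequences were not used here, so which of the transcripts each probe reads is not known, and no value below is assigned to a start.

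Kdm2b was lower in Wnt4βKO islets at 1 of its probes by more than the spread between mice. At a second, dim probe the size of the fall depended on how background was removed, and at the last probe the difference had the opposite sign. At A_55_P2065149 the log2 signal was 10.13, 10.27 and 10.15 in control replicates 2, 3 and 4. It was 8.92, 8.56, 8.95 and 8.74 in Wnt4βKO replicates 1 to 4. All 4 Wnt4βKO arrays lay below all 3 control arrays, with a wide gap between the groups. The means were 10.18 ± 0.07 (SD, n = 3) and 8.79 ± 0.18 (SD, n = 4), a difference of -1.39 ± 0.11 (SE), or 0.381 of the control signal. Before any correction the spot read 822, 1558 and 1093 intensity units in control and 538.5, 342.5, 445 and 340.5 in Wnt4βKO arrays, over a local background of 23 to 25. The separation was therefore visible in the scanner's own median intensities, well over background on every array. The log2 values deposited by the authors, described under Other observations, do not hold this fall. This difference is among the 4 probes (0.0153% of those tested) past an adjusted limma p of 0.05 in this contrast, which is what selected the gene.

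At the second probe, A_55_P2065154, the signal stayed close to background. Its log2 values were 6.12, 6.57 and 6.06 in control and 5.85, 6.01, 5.94 and 5.86 in Wnt4βKO islets. The spot read 31, 77.5 and 31 intensity units in control and 23, 28, 26 and 23 in Wnt4βKO arrays, against a background of 23 to 24. All 3 control arrays and 2 of the 4 Wnt4βKO arrays were well above background. The groups did not overlap, with Wnt4βKO lower by a difference of -0.33 ± 0.13 (SE), and control replicate 3 stood above the other control arrays. Without that replicate the difference was -0.16. The last probe, A_55_P2718493, was well above background on all 7 arrays but also dim. It had log2 values of 5.98, 6.07 and 6.14 in control and 6.26, 6.12, 6.16 and 6.24 in Wnt4βKO islets. The groups overlapped and the difference was 0.13 ± 0.07 (SE), opposite in sign to the other probes of the gene.

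**Figure D1:**
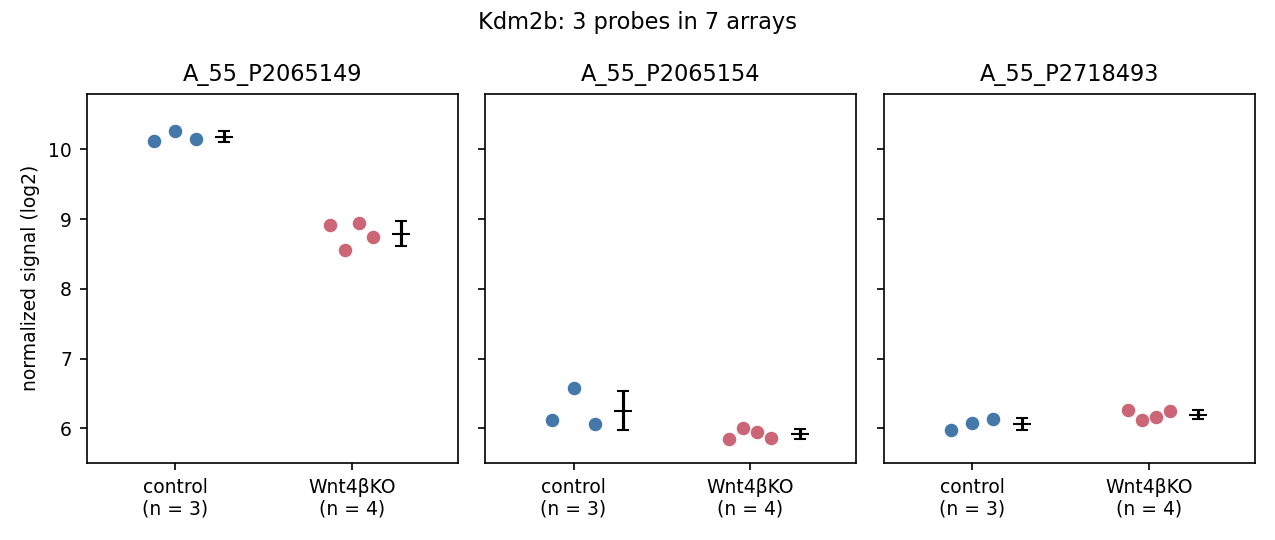
Normalized log2 signal (y axis) of the 3 Kdm2b probes in each array, control (blue, n = 3) and Wnt4βKO (red, n = 4), with mean and SD as black bars. At A_55_P2065149 the Wnt4βKO arrays reach from 8.56 to 8.95 and the control arrays from 10.13 to 10.27, and at the other probes all arrays lie between 5.85 and 6.57.

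Differences between probes of 1 gene were also taken within each array. The signal of A_55_P2065149 exceeded that of A_55_P2718493 by 4.12 ± 0.09 (SD, n = 3) on the log2 scale in control and by 2.60 ± 0.16 (SD, n = 4) in Wnt4βKO arrays. This contrast changed by -1.52 between the groups, and it stayed between -1.98 and -1.47 over 19 alternative treatments of the data. The corresponding contrast with A_55_P2065154 changed by -1.06, but by -0.22 with a normexp offset of 0, and it turned to 0.57 with the scanner's processed signal. The unequal change between A_55_P2065149 and A_55_P2718493 thus kept its sign, while that against A_55_P2065154 rested on how background was removed. Alternatives that change only the filter or the variance model cannot move these contrasts. Both contrasts contain the difference of -1.39 at A_55_P2065149 that selected the gene, and most of the -1.52 is that difference. They are a description and no separate support for it. An offset of 50 added to spots that read a few units over background compresses their fold changes. With the processed signal A_55_P2065154 differed by -1.97 and A_55_P2718493 by 0.57, against -1.40 for A_55_P2065149.

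**Figure D2:**
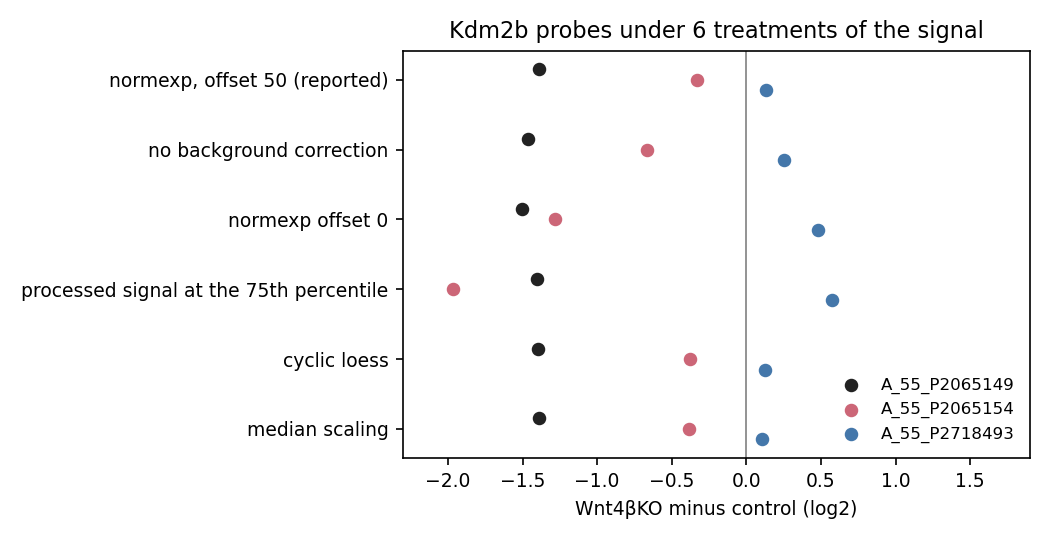
Difference between Wnt4βKO and control (x axis, log2) of each Kdm2b probe under the reported treatment of the signal and 5 others (y axis). A_55_P2065149 stays between -1.50 and -1.39, A_55_P2065154 runs from -1.97 to -0.33 and A_55_P2718493 from 0.11 to 0.57.

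The fall at A_55_P2065149 was looked at for position on the slide and for the make-up of the islets. Slide row 1 held control replicate 4 and Wnt4βKO replicates 1 and 2, and there the difference was -1.42. Slide row 2 held the other 4 arrays, and there it was -1.35. The 54 tested probes within 5 rows and columns of this spot had a median difference of -0.0074 and ranged from -0.79 to 0.25. Slide row 1 rests on 1 control array, and these values come from the contrast that selected the gene. The part of slide position in the result was not tested.

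Acinar markers, which report exocrine cells carried along with islets, were lower in Wnt4βKO islets in 22 of 25 tested genes of 27 listed, with a median log2 difference of -0.63. The log2 of their summed signal ran from 18.77 to 18.91 in control and from 18.00 to 18.72 in Wnt4βKO arrays. With the acinar mean as a covariate, an alternative chosen after seeing the data, the Kdm2b difference at A_55_P2065149 was -1.50. The acinar means did not overlap, at 13.01 to 13.13 in control and 11.73 to 12.88 in Wnt4βKO arrays, so acinar content and genotype cannot be told apart here. Immune markers were higher in all 10 tested genes of 12 listed, with a median of 0.40 and summed log2 signals of 12.05 to 12.37 in control and 12.33 to 13.43 in Wnt4βKO arrays, and their part in the Kdm2b result was not tested. β-cell markers had summed log2 signals of 16.90 to 16.97 in control and 16.95 to 17.11 in Wnt4βKO arrays, with 6 of 12 genes below 0. Their unweighted mean ran the other way, from 11.39 to 11.45 in control and from 11.18 to 11.45 in Wnt4βKO arrays, the lowest difference was -1.54 and 1 of the 12 genes passed an adjusted limma p of 0.05. In bulk islets, fewer cells of a type and less RNA per cell cannot be told apart.

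Among the PRC1.1 partners and Kdm2a, no gene accompanied Kdm2b past a threshold. Of their 16 probes, 13 were tested, and 0 passed an adjusted limma p of 0.05. At an unadjusted limma p of 0.05, the threshold used by the study, 0 were higher and 0 were lower, where 3.26% and 3.76% of all tested probes were. By sign 7 lay above 0 and 6 below, with a median log2 difference of 0.05 against 0.0011 over all tested probes. The range was -0.18 to 0.23, and the adjusted p-values lay between 0.806 and 0.999. The groups did not overlap at 1 of the 13 probes, where Wnt4βKO was lower. Over all tested probes 3.42% were separated with Wnt4βKO higher and 3.82% with Wnt4βKO lower, so a single separated probe is no result about the partners.

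**Figure D3:**
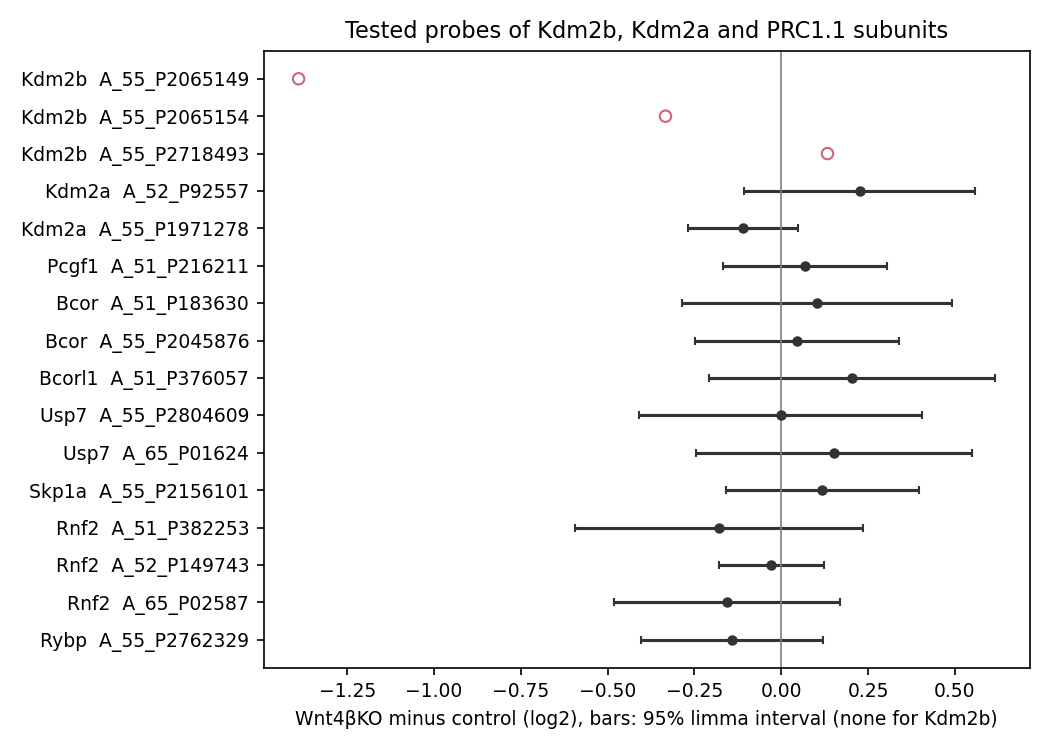
Difference between Wnt4βKO and control (x axis, log2) of the 16 tested probes (y axis), with 95% limma intervals as bars for the 13 probes of Kdm2a and the PRC1.1 subunits. The Kdm2b probes are open circles with no interval, since Kdm2b was chosen on this contrast, and the intervals of all the other probes include 0.

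Kdm2a, the paralog with the same CXXC finger and demethylase domain, did not show the fall seen at A_55_P2065149 of Kdm2b. Its probe A_52_P92557 had log2 values of 7.49, 7.18 and 7.45 in control and 7.41, 7.63, 7.45 and 7.91 in Wnt4βKO islets. The groups overlapped, and the difference was 0.23 with a 95% limma interval of -0.11 to 0.56. At A_55_P1971278 the values were 6.34, 6.38 and 6.39 in control and 6.24, 6.33, 6.28 and 6.18 in Wnt4βKO islets. This was the separated probe named above, with a difference of -0.11 (95% interval -0.27 to 0.05) and an unadjusted limma p of 0.147 (adjusted 0.806). The gap between the groups was small, and Wnt4βKO replicate 2 nearly reached control replicate 2. The difference was -0.10 in slide row 1 and -0.13 in slide row 2. It was -0.23 with no background correction, -0.30 with an offset of 0 and -0.45 with the processed signal, so its size also rested on the treatment of background. The remaining Kdm2a probe did not rise well above background on any of the 7 arrays.

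Pcgf1, the ring finger protein that defines PRC1.1, had values of 7.01, 7.18 and 6.86 in control and 6.96, 7.09, 7.21 and 7.10 in Wnt4βKO islets. The arrays of both groups were interleaved, and the difference was 0.07 (95% interval -0.17 to 0.31). Bcor, the corepressor that binds PCGF1, was read by a pair of probes. A_55_P2045876 gave 8.35, 8.51 and 8.68 in control and 8.59, 8.30, 8.70 and 8.66 in Wnt4βKO islets, a difference of 0.05 (95% interval -0.25 to 0.34). A_51_P183630 gave a difference of 0.10 (95% interval -0.28 to 0.49), with control replicate 3 the highest of all arrays at 7.41. Bcorl1, the X-linked relative of Bcor that can take its place, had values of 6.82, 6.77 and 6.23 in control and 6.99, 6.51, 6.82 and 6.92 in Wnt4βKO islets. Control replicate 4 was the lowest array, and the difference of 0.20 had a 95% interval of -0.21 to 0.62.

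The ubiquitin ligase subunits were read unevenly. Rnf2, the main catalytic subunit of PRC1, had 3 tested probes whose differences were -0.18, -0.16 and -0.03. At A_51_P382253 the control arrays were nearly equal, at 7.45, 7.45 and 7.39. The Wnt4βKO arrays spread from 6.80 in replicate 4 to 7.62 in replicate 3, around 7.20 and 7.36 in replicates 1 and 2, so that they lay on both sides of the control arrays. The 95% limma interval at this probe ran from -0.59 to 0.24. At A_65_P02587 it ran from -0.48 to 0.17. The dim probe A_52_P149743 was well above background on 3 control arrays and on 1 of the Wnt4βKO arrays. Ring1, the paralogous ligase, had 1 probe, which on none of the 7 arrays was well above background, with log2 signals of 5.83 to 5.98, and no difference is given for it.

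Rybp, which links the ligase to DNA-bound partners and reads ubiquitinated H2A, gave 7.81, 8.20 and 7.82 in control and 7.77, 7.83, 7.89 and 7.73 in Wnt4βKO islets at A_55_P2762329. Control replicate 3 was the highest array, and the other 6 lay close together. The difference was -0.14 (95% interval -0.40 to 0.12), and a second Rybp probe was too dim to stand well above background on any of the 7 arrays. Skp1a, the adaptor shared with SCF ubiquitin ligases, gave 10.26, 10.62 and 10.22 in control and 10.41, 10.48, 10.65 and 10.41 in Wnt4βKO islets. The groups overlapped, with a difference of 0.12 (95% interval -0.16 to 0.40). Usp7, the deubiquitinase of the complex, was read by A_65_P01624 and A_55_P2804609. At A_65_P01624 the values were 9.12, 9.28 and 9.50 in control and 9.69, 9.60, 9.04 and 9.48 in Wnt4βKO islets. Wnt4βKO replicate 3 was the lowest of all arrays and replicate 1 the highest, and the difference was 0.15 (95% interval -0.25 to 0.55). At A_55_P2804609 it was -0.0020, and there replicate 1 was the lowest.

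**Figure D4:**
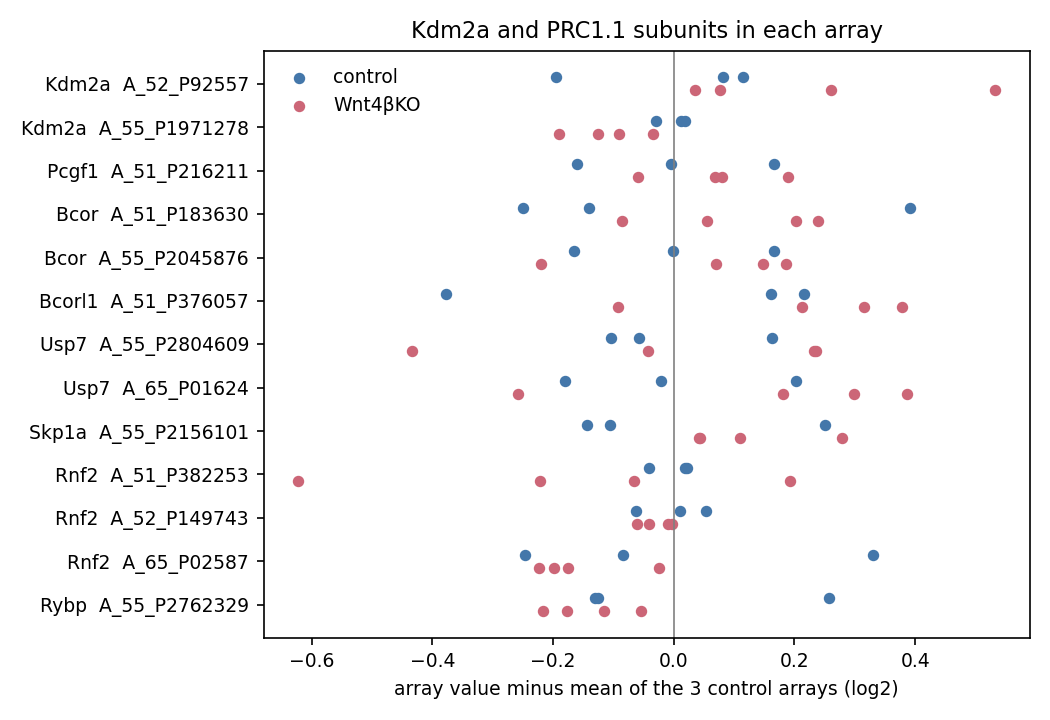
Value of each array minus the mean of the 3 control arrays (x axis, log2) for the 13 tested probes of Kdm2a and the PRC1.1 subunits (y axis), control in blue and Wnt4βKO in red. The groups overlap at 12 of the 13 probes, and at Kdm2a A_55_P1971278 all Wnt4βKO arrays lie to the left of all control arrays.

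The lowest limit among the 13 partner intervals was -0.59, at Rnf2 A_51_P382253, and the highest was 0.62, at Bcorl1. These intervals hold for an offset of 50, which compresses the differences of dim probes. With the processed signal Rnf2 A_52_P149743 differed by -0.75 (unadjusted limma p 0.0212, adjusted 0.682), outside its interval of -0.18 to 0.12. A p that misses the threshold does not show that the levels of these partners were equal.

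Genes around PRC1.1 were read from lists of 164 genes outside the members, of which 120 were tested with 1 probe per gene. None passed an adjusted limma p of 0.05, the lowest adjusted p being 0.429. At an unadjusted limma p of 0.05, 3 genes were higher and 6 were lower. Over the 13666 named genes tested, 4.38% were higher and 4.61% lower by the same rule, so neither count stood out for 120 genes. The median difference over the 120 genes was -0.0036.

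Yaf2, which takes the place of Rybp in a share of PRC1 complexes, had values of 8.05, 8.41 and 7.93 in control and 7.75, 7.86, 7.90 and 7.66 in Wnt4βKO islets. All Wnt4βKO arrays lay below all control arrays, narrowly at control replicate 4. The difference was -0.34 ± 0.13 (SE), with an unadjusted limma p of 0.0304 and an adjusted p of 0.675. A second Yaf2 probe differed by 0.03, so the probes of the gene did not move together. L3mbtl2, a subunit of the PCGF6 variant complex, differed by 0.30 ± 0.11 (SE) at A_55_P2740096 with no overlap (unadjusted limma p 0.0252), and by 0.42 and 0.10 at its other probes, where the groups overlapped. Dcaf7, found in variant PRC1, differed by -0.29 with overlapping groups (unadjusted limma p 0.0451), and by 0.05 at a second probe. Hdac1 of the variant PRC1 list differed by 0.08 at its brightest probe, the one counted. At a second probe it differed by -0.58 with no overlap (unadjusted limma p 0.0056, adjusted 0.529).

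Canonical PRC1 had 12 of 13 genes tested and none past an unadjusted limma p of 0.05. Bmi1, the Polycomb ring finger protein of the canonical complex, differed by 0.0061 and, at a second probe, by -0.08, and Cbx7, a reader of methylated lysine 27 of histone H3, by 0.12. PRC2, which places that mark, had 12 of 13 genes tested and none past the same threshold. Its catalytic subunit Ezh2 differed by 0.13 ± 0.23 (SE) and by -0.04 and 0.01 at its other probes. Suz12 differed by 0.04 and 0.05, and Eed by -0.22 with no overlap and an unadjusted limma p of 0.0532. The lists of H3K36 methyltransferases (7 tested), CXXC proteins (9 tested) and SCF and F-box proteins (16 tested) held no counted probe past this threshold. These counts take the brightest probe of each gene. Mbd1 of the CXXC list differed by -0.11 at that probe. At a second probe it differed by 0.29 with no overlap (unadjusted limma p 0.0106, adjusted 0.600).

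Usp16, which removes ubiquitin from histone H2A and so opposes PRC1, gave 10.39, 10.66 and 10.25 in control and 10.06, 10.06, 10.22 and 10.16 in Wnt4βKO islets. The groups did not overlap, the difference was -0.31 ± 0.11 (SE; unadjusted limma p 0.0239, adjusted 0.651), and a second probe gave -0.32. Kdm6b, a demethylase of lysine 27 of histone H3, had the lowest p of the lists. Its values were 7.39, 7.61 and 7.30 in control and 8.11, 8.02, 7.82 and 8.15 in Wnt4βKO islets. Every Wnt4βKO array was above every control array, with a difference of 0.59 ± 0.11 (SE), an unadjusted limma p of 0.0010 and an adjusted p of 0.429. Riox1, another JmjC protein, differed by -0.20 with overlapping groups (unadjusted limma p 0.0468).

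Genes that Polycomb is known to silence gave few readable values. Of 39 Hox genes, only 7 were tested. Hoxb3 gave 6.36, 6.14 and 6.35 in control and 5.93, 6.07, 6.10 and 6.03 in Wnt4βKO islets, a separation without overlap of -0.25 ± 0.08 (SE; unadjusted limma p 0.0190, adjusted 0.628). Hoxb4 was well above background on the 3 control arrays and on 0 of the 4 Wnt4βKO arrays. Its level in Wnt4βKO islets is therefore only a bound. Against that bound the control mean was 1.11-fold higher, an estimate that leaves out the spread between mice. The 95% limma interval of its log2 difference ran from -0.30 to -0.0061 (adjusted limma p 0.692), so a much smaller fall was not excluded. The other 5 tested Hox genes lay above 0. Of the cyclin-dependent kinase inhibitors, Cdkn1c gave 7.04, 7.31 and 7.42 in control and 7.70, 7.60, 7.43 and 7.73 in Wnt4βKO islets. It was higher in all Wnt4βKO arrays by 0.36 ± 0.12 (SE; unadjusted limma p 0.0172, adjusted 0.623). Cdkn2a, the locus named above, differed by -0.04 ± 0.10 (SE), and Cdkn2b beside it by -0.39 ± 0.18 (SE) with overlapping groups, and by 0.04 at a second probe.

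**Figure D5:**
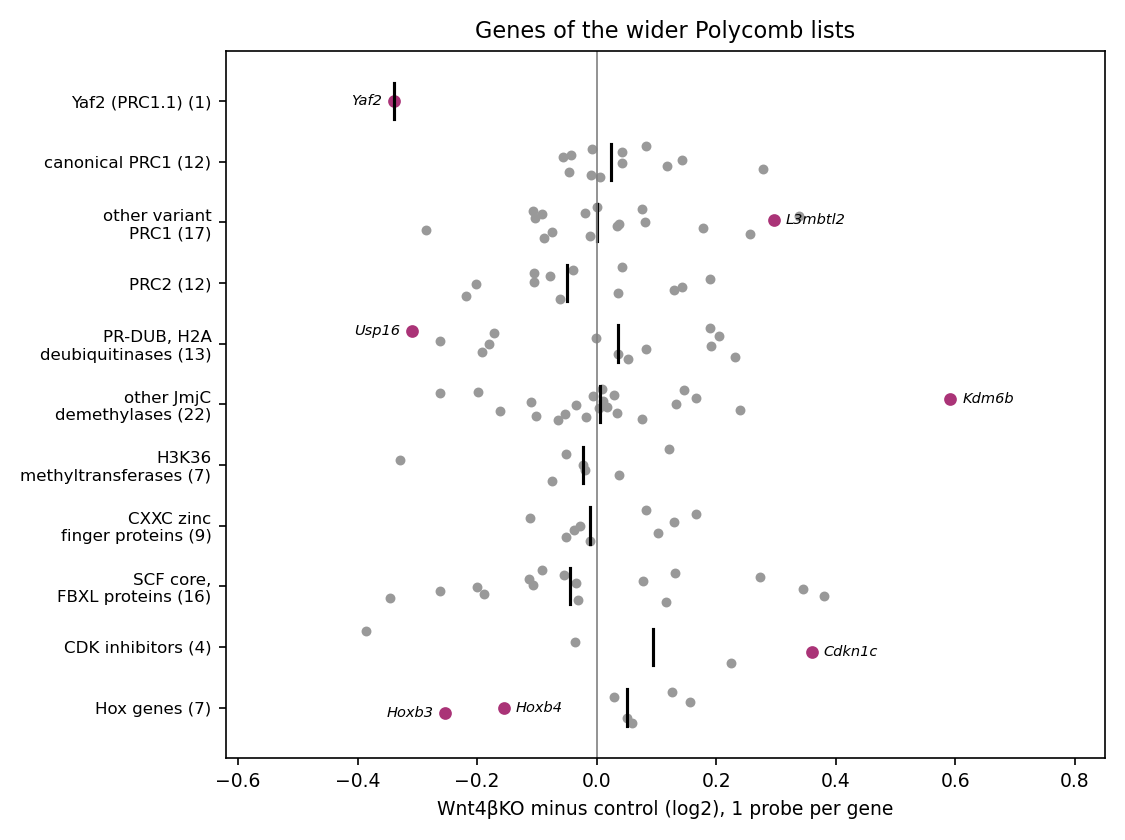
Difference between Wnt4βKO and control (x axis, log2) for the 120 tested genes of the 11 lists (y axis, number tested in brackets), 1 point per gene and a black line at each list's median. Purple points passed an unadjusted limma p of 0.05 with no overlap between groups, from Yaf2 at -0.34 to Kdm6b at 0.59.

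The probes whose pattern over the 7 arrays was most like A_55_P2065149 of Kdm2b were ranked by Pearson's r, as a description with no test, since the points share the groups, the slide and the normalization. The highest values belonged to Casd1 (0.980), Gm35628 (0.979), Thap12 (0.974), Eif4g1 (0.973), a translation initiation scaffold, and Capsl (0.971). Their differences were smaller than that of Kdm2b, from -0.69 for Capsl to -0.12 for Thap12. After each group was centred on its mean, r fell to between 0.26 and 0.70, so much of the likeness was the step between the groups. The most opposed probes read Gpr25 (-0.995), an orphan receptor, Bend5 (-0.984 and -0.980), Shd (-0.980) and Tmem74b (-0.969). After centring, r was -0.94 for Gpr25, whose group difference was 0.24. For the Bend5 probes it was -0.22 and 0.13, and their group differences were 3.88 and 4.58. Gpr25 was picked as the most opposed of many probes over the same 7 arrays, which favours a strong centred value. No relation is read from it. Gpr25, Shd, Tmem74b, Gm35628 and Thap12 were also dim, with log2 signals between 5.92 and 6.38. None of the probes in these lists read a member.

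Over the 13 partner probes, r with A_55_P2065149 of Kdm2b ranged from -0.63 to 0.73. Both ends belonged to Kdm2a, with 0.73 at A_55_P1971278 and -0.63 at A_52_P92557. After centring, Bcor A_55_P2045876 had the highest value (0.67) and Usp7 A_55_P2804609 the lowest (-0.72). With 7 arrays in 2 groups such values vary widely, and no order among the partners is read from them.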

How the data were processed

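Islet RNA (50 ng) was labelled with Cy3 per the labels and hybridized to 1-colour arrays, 1 per mouse. The authors deposited scanner output (Agilent Feature Extraction 12.0.1.1) with spot intensity on a linear scale, not normalized between arrays, and a table of log2 values that was not used for comparisons. The files used here hold the median and not the mean spot signal, so median spot and background intensity was taken. Following the study's methods, normexp background correction (offset 50) and quantile normalization were run in limma 3.58.1 under R 4.3.3. Control spots were left out afterwards, outlier flags set to missing and repeated spots averaged. Tested probes had to stand well above background in 3 or more of the 7 arrays. The test was lmFit and eBayes, two-sided, with Benjamini-Hochberg adjustment. Genes were matched by accession to RefSeq (GRCm38.p6), and a list gene was represented by its probe with the highest mean signal.

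The 10 genes, the lists, the tests and most alternatives were chosen with earlier results of these data known. Named genes were the members with all their probes, Wnt4, and list genes past an unadjusted limma p of 0.05 without overlap (at most 4 per list). To these the rule added the genes of the 5 probes with the highest and the 5 with the lowest r with Kdm2b A_55_P2065149. The list genes Dcaf7, Riox1, Eed, Bmi1, Cbx7, Ezh2, Suz12, Cdkn2a, Cdkn2b, Mbd1 and Hdac1 fall outside this rule and were named after their values were seen. Ear tags in the labels differ between samples, so replicates were taken as separate mice. Same-numbered replicates did not deviate together (r -0.13, 0.23 and -0.0057), and no pairing was used. Equal numbers are not known to mark a shared litter, so these values cannot show whether littermates deviated together. The pipeline was tested on simulated data.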

Additional observations from a re-analysis of the deposited data

How the results depend on the processing

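The difference at Kdm2b A_55_P2065149 kept its sign in 19 of 19 alternatives (-1.50 to -1.31), and no partner probe passed an adjusted limma p of 0.05 in any of the 19. Alternatives that change only the filter on dim probes or the variance model leave the difference of a probe as it was. Their agreement on it was fixed in advance. A_55_P2065149 selected the gene and its groups did not overlap, so leaving out or reweighting arrays could hardly turn its sign either. The 19 agreements are a description and no support for the fall. The contrast of this probe with A_55_P2065154 was -0.80 with no background correction, -0.22 with an offset of 0 and 0.57 with the processed signal, and that with A_55_P2718493 was -1.72, -1.98 and -1.98. Leaving out 1 array at a time gave -1.19 to -0.94 and -1.59 to -1.47. Over the whole array, probes past the adjusted threshold numbered 7 with the processed signal, 2 with the replicate block, 2 with the acinar covariate and 2 to 5 with 1 array left out. Partner probes lower at an unadjusted p of 0.05 numbered 1 with the processed signal (Rnf2 A_52_P149743) and 1 with no filter on dim probes (Kdm2a A_55_P1971278). Higher ones numbered 1 with the replicate block (Kdm2a A_52_P92557) and 0 to 2 with 1 array left out, the 2 (Bcor A_51_P183630 and Skp1a) arising without control replicate 3. The 6 Polycomb list genes that were lower became 3 with no background correction or a filter on all 7 arrays, 2 with an offset of 0, the processed signal, a trended robust variance or the replicate block, 1 with median scaling and 0 with the acinar covariate. With 1 array left out they numbered 1 to 10, with 10 without control replicate 4 and 1 without control replicate 3 or Wnt4βKO replicate 1. The 3 higher ones became 1 with median scaling and 3 to 6 with 1 array left out, with 6 without Wnt4βKO replicate 2. The cause of these shifts was not tested. Of probes past an unadjusted p of 0.05, 46.5% were higher, but 28.2% with median scaling. Of 283 values for the other single member probes, 16 changed sign and 267 moved by less than 1 SD. The 267 include values from the alternatives that cannot move a difference. The partner median ran from -0.01 to 0.09 and kept its sign in 17 of 19 alternatives. Signal near background limits the dim probes, among them Kdm2b A_55_P2065154 and A_55_P2718493, Kdm2a A_55_P1971278 and Rnf2 A_52_P149743.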

Other observations

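The deposited table of log2 values holds 36693 probes, and its columns did not follow the scanner arrays of the same samples. Deviations from the probe means correlated with those of the own array at r between -0.21 and 0.15 across probes, which are not independent replicates, and 2 of 7 columns matched their own array best. In that table A_55_P2065149 of Kdm2b ran from 9.77 to 10.18 in the 3 control columns and from 9.69 to 9.90 in the 4 Wnt4βKO columns. The difference by column label was -0.16, with overlapping groups. Since the columns did not follow their arrays, this split cannot be read as a genotype difference. All 7 columns lay between 9.69 and 10.18, against 8.56 to 10.27 in the scanner data. No order of the columns would therefore give the fall of -1.39. Why the deposited values lack it was not tested.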
